A study of Homo sapiens with 63 samples.

Results

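Small cell lung cancer (SCLC) cell lines treated with cisplatin plus 50 µM veliparib (C+50) were compared with the same lines given vehicle (Con). The arrays were chosen by their titles, 1 C+50 and 1 Con array for each of 9 lines, which made 18 of the 63 arrays of the series. The lines were DMS53, DMS114, DMS153 (D53, D114 and D153 in the labels), H69, H526, H128, H209, H146 and H187, and the comparison was made within each line, so that a line was the replicate. The study could not authenticate H128, whose DNA profile differed from published references and matched profiles of other lines. C+50 cells received veliparib (ABT888) at 50 µM together with cisplatin, whose labelled dose differed by line: 0.4 µM in H526, 1.7 µM in H187, 4.3 µM in H69, 4.7 µM in DMS153, 5.2 µM in H146, 8 µM in DMS114, 12.5 µM in DMS53, 14.2 µM in H209 and 14.5 µM in H128. Cells given 50 µM veliparib alone (A50) and cisplatin alone at the same line-specific dose (C+0), 9 arrays each, stand beside C+50 where a gene's response to the components is given. By the study's methods, each cisplatin dose was the 50% inhibitory concentration (IC50) that it had determined for that line. Con cells received vehicle and neither drug. Genes that the study listed in its own table of drug-related genes are left out here, and 13596 other genes are described.

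Cisplatin is a platinum drug that crosslinks DNA and blocks both replication and transcription, and veliparib is an inhibitor of the enzymes PARP1 and PARP2, which bind DNA breaks and help to repair them. Cells with unrepaired DNA pass checkpoints slowly, and the genes of DNA synthesis and of mitosis are switched on in separate phases of the cycle, the first largely through E2F factors and the second through CHR and CCAAT elements in their promoters. SCLC is a fast-growing neuroendocrine tumour in which p53 and RB1 are usually lost.

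Each value is a log2 normalized signal from an Illumina HT-12 bead array, and a change is C+50 minus Con in log2 units, averaged over 9 lines. A gene was called at an adjusted p under 0.05 in limma with cell line as a block, adjusted over all 25408 probes detected on at least 4 of the 18 arrays. Every SE of a change is limma's moderated SE, in which a probe's variance is drawn toward that of the other probes. For genes that vary most between lines it is smaller than their own spread over lines would give. Culture RNA was measured in bulk, so fewer cells in a phase and less RNA per cell cannot be told apart. The lines differ in starting level, and for every gene whose signals are given below the ranges of C+50 and Con overlapped, so the number of lines that moved one way is given instead. The labels do not tie a line's arrays to separate cultures, and each line had 1 array per condition. The study's methods and figure legend for these arrays give an exposure of 24 h. The labels give 48 to 72 h, which is the exposure that the methods give for the cytotoxicity assay.

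The arrays differed little in detected probes at the looser threshold and more at the stricter one. The number of probes with a detection p under 0.05 was 19484 at the lowest, 20391 at the median and 21642 at the highest over C+50 arrays, against 19569, 20886 and 21292 over Con arrays, and the difference averaged -170 ± 558 (SD, n = 9; exact two-sided sign-flip permutation p = 0.363). At a detection p under 0.01 the difference was -474 ± 415 probes, lower in 8 of the 9 lines (p = 0.0117, same exact permutation test). All 11 neuroendocrine markers with a probe were detected on at least 9 of the 18 arrays and 7 on all 18. Of 8 leucocyte markers with a probe, PTPRC, CD3D and CD3E were detected on none. The monocyte markers CD14 and CD68 were detected on all 18 arrays. The B cell marker MS4A1 was detected on 5 C+50 and 4 Con arrays, LYZ on 0 and 1, and CSF1R on 1 and 1. DMS53 stood apart from the other lines: 576 probes were at least 1.5-fold higher and 230 at least 1.5-fold lower in its C+50 array than in its Con array, against 9 to 99 higher and 25 to 173 lower in the other lines. Without DMS53, 3469 probes were called in place of 3617.

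The combination changed many genes by small amounts. Of the probes, 1695 were higher in C+50 (6.67%) and 1922 lower (7.56%), and 6808 had an unadjusted p under 0.05. By gene, with the brightest probe standing for the gene, 1120 were higher (8.24%) and 1293 lower (9.51%), and the median size of a called change was 0.18. With the arrays scaled to a common median instead of quantile normalized, 585 probes were higher and 1281 lower, so the share of falls among the calls depends on the scaling. Called changes in the same direction in all 9 lines numbered 532 rises (3.91%) and 637 falls (4.69%). At the threshold of the study's methods, a fold of at least 1.5 at an unadjusted p under 0.01, 25 probes passed (0.0984%), 5 higher (0.0197%) and 20 lower (0.0787%) in C+50, and under the neqc normalization 145 did. Of the described genes 4 passed: ATP5MK higher (0.00736%), and KIF20A, FAM72B and CENPF lower (0.0221%).

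Several of the leading falls were genes of mitosis. KIF20A encodes a kinesin of the central spindle needed for cytokinesis. Its signal was 7.85 at the lowest, 9.15 at the median and 9.76 at the highest in C+50 cells. In Con cells it was 8.87, 9.84 and 10.19. KIF20A fell by 0.74 ± 0.11 (moderated SE, n = 9, adjusted p = 0.00069, limma), and the SD of its change over lines was 0.45. The groups overlapped because the lines start from different levels, but C+50 lay below Con in 9 of 9 lines, least in H187 (-0.32) and most in DMS53 (-1.69). CENPF, a protein of the outer kinetochore, had 8.30, 9.20 and 10.10 in C+50 cells, against 8.93, 9.77 and 11.03 in Con cells, and fell by 0.62 ± 0.07 (adjusted p = 5.7e-05). CCNB2, a mitotic cyclin, ran 8.71, 10.29 and 10.77 in C+50 cells, against 9.82, 10.60 and 11.18 in Con cells, and fell by 0.58 ± 0.10 (adjusted p = 0.0012). CDC20 activates the anaphase-promoting complex, and with 10.03, 10.98 and 11.64 in C+50 cells, against 10.44, 11.45 and 12.04 in Con cells, it fell by 0.57 ± 0.07 (adjusted p = 9.6e-05). For all of these genes the ranges of the groups overlapped and every line moved down.

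The promoters of those 4 mitotic genes are shown because CHR (TTTGAA) and CCAAT elements are the known control elements of this gene class. Each is 250 bases before to 50 after the first listed RefSeq start, GRCh38.p14, gene strand, 5′ to 3′, with matches to TTTGAA or CCAAT on either strand in capitals. The windows are chr5:138178862-138179161 (KIF20A, + strand), chr1:214602945-214603244 (CENPF, +), chr15:59104896-59105195 (CCNB2, +) and chr1:43358731-43359030 (CDC20, +).
KIF20A: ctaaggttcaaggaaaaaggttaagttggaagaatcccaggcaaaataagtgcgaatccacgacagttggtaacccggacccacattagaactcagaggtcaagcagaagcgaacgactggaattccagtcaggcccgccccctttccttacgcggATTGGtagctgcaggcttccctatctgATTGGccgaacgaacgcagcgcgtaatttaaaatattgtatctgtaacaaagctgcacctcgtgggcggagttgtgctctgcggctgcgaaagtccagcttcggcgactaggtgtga
CENPF: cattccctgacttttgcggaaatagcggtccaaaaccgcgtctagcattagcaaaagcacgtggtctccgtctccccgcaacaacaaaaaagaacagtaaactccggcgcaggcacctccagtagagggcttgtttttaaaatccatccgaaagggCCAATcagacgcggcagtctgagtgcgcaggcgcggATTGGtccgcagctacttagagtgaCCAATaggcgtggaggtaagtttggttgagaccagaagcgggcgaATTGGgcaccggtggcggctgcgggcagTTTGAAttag
CCNB2: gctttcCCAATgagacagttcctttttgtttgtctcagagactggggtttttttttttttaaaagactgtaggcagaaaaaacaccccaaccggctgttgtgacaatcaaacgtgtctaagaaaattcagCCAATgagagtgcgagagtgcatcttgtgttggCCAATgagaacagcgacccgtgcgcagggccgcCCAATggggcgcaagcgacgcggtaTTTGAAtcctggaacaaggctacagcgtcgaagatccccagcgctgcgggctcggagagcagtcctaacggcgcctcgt
CDC20: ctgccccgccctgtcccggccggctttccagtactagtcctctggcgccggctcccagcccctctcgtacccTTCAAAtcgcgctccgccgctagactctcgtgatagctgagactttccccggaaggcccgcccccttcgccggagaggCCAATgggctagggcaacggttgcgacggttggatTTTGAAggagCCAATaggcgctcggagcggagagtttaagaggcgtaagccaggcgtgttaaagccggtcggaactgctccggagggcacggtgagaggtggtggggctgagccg
CCNB2 held CCAAT 4 times and TTTGAA once, 29 bases before the start. CDC20 held TTTGAA on both strands and CCAAT at 2 places. KIF20A held CCAAT 2 times on the opposite strand, and no match to the letters TTTGAA in this window.

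Most measured genes of the mitosis list were lower. This list, like the other gene lists here, was chosen with earlier results of these data known, so its counts are a description and not a test. Of 63 measured members of the list, 44 were lower and 1 higher, against 9.51% lower and 8.24% higher over all genes, and the list's median change was -0.28, against -0.00 over all genes. The falls of 31 members had the same direction in 9 of 9 lines. The list's median was below 0 in every line, from -0.07 in H187 to -0.54 in DMS53, with -0.14 in H69, -0.19 in H526, -0.26 in H209, -0.27 in H128, -0.27 in DMS114, -0.29 in H146 and -0.40 in DMS153. Without DMS53, 42 members were lower. Under median scaling 33 were lower. CCNB1, the main mitotic cyclin, was lower in 9 of 9 lines (fell by 0.49 ± 0.08, adjusted p = 0.00094) and TOP2A, a topoisomerase that untangles sister chromatids, was lower in 8 of 9 (fell by 0.38 ± 0.07, adjusted p = 0.0031). CDKN3, a phosphatase that acts on CDK1 and CDK2, fell by 0.51 ± 0.10 (adjusted p = 0.0031), with -0.09 in H128 and -1.20 in DMS53 at the ends. MKI67, the proliferation antigen, changed by -0.17 ± 0.06 and did not pass (adjusted p = 0.058). The 1 member that was higher, CDCA5, a cohesin protector also known as sororin, rose by 0.19 and is named here after its value was seen. Median scaling ended its call (adjusted p = 0.18). Of the list's 10 measured kinesin (KIF) genes, 7 were lower and none higher.

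**Figure D1:**
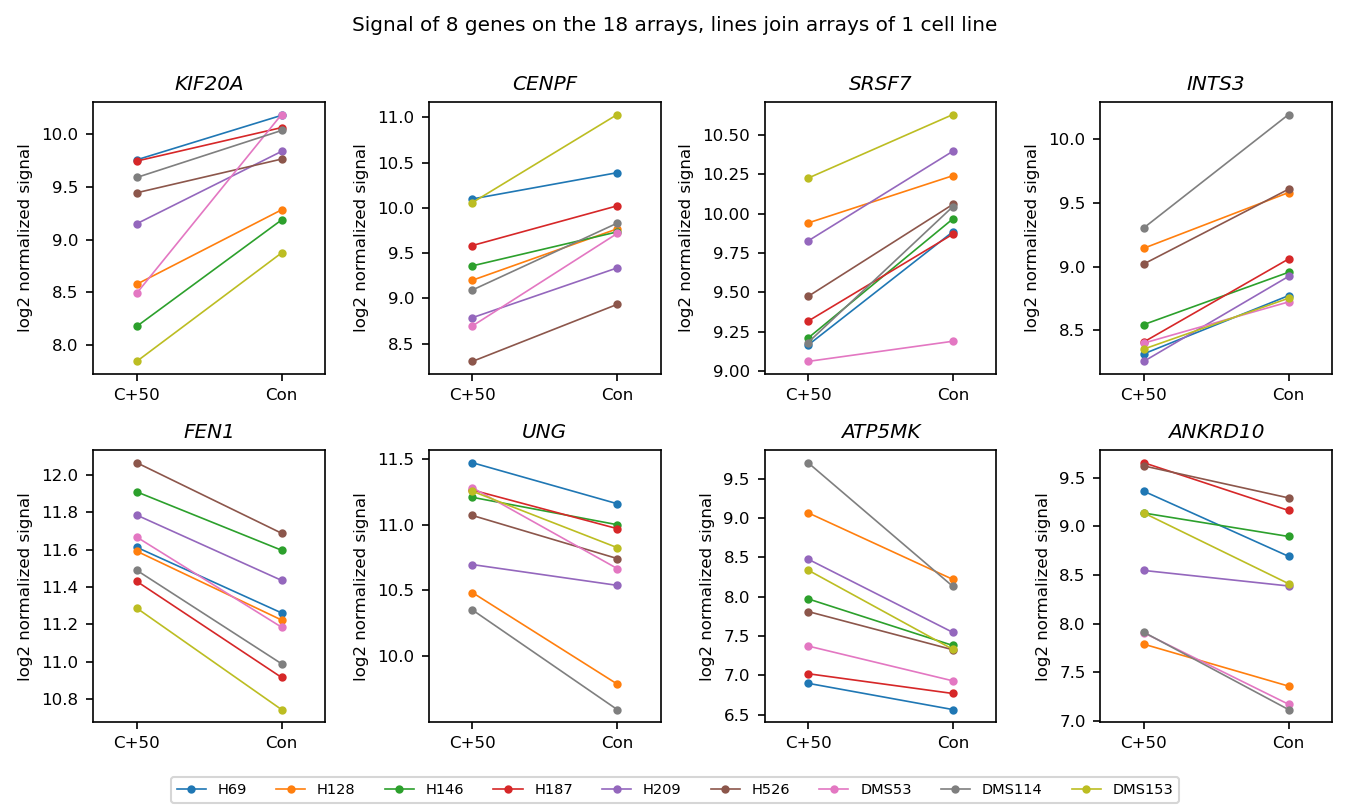
Log2 normalized signal of 8 genes on the 18 arrays, C+50 at the left and Con at the right of each panel, with a line joining the 2 arrays of a cell line. KIF20A, CENPF, SRSF7 and INTS3 slope up from C+50 to Con in every line, and FEN1, UNG, ATP5MK and ANKRD10 slope down in every line.

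Of 56 measured genes of the G1/S transition and DNA synthesis, 19 were higher and 4 lower, against 8.24% higher and 9.51% lower over all genes. The choice of this list, too, was made with earlier results of these data known. The list as a whole had 41.1% of its members called, the median was 0.10, and the list's median was above 0 in all lines, from 0.01 in H69 to 0.24 in DMS153. Under median scaling 12 were higher and 2 lower. FEN1 encodes the flap endonuclease that trims Okazaki fragments and acts in long-patch base excision repair. It had 11.29, 11.61 and 12.07 in C+50 cells (lowest, median, highest), against 10.74, 11.22 and 11.69 in Con cells, and rose by 0.42 ± 0.03 (adjusted p = 5.8e-06), from 0.31 in H146 to 0.54 in DMS153. UNG, the uracil DNA glycosylase, had 10.35, 11.21 and 11.47 in C+50 cells, against 9.60, 10.74 and 11.16 in Con cells, and rose by 0.42 ± 0.06 (adjusted p = 0.00037). Its 2 other kept probes gave smaller rises of 0.15 and 0.17, both called. MCM5 belongs to the ring helicase that opens DNA at replication forks and rose by 0.37 ± 0.07 (adjusted p = 0.0023) in 8 of 9 lines, and 3 of the 7 measured MCM genes of the list were higher and none lower. CCNE1, the cyclin that drives S phase entry, rose by 0.35 ± 0.04 (adjusted p = 0.00017), with 7.63, 8.57 and 9.31 in C+50 cells, against 7.15, 8.24 and 9.00 in Con cells, and its other kept probe gave 0.10 and was not called. FEN1, UNG and CCNE1 were higher in every line, although the ranges of the groups overlapped for each of them.

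The 4 members of that list that fell, named after their values were seen, were PRIM1, a primase subunit (-0.32, adjusted p = 0.0032, lower in 9 of 9 lines), RRM2, a ribonucleotide reductase subunit (-0.27, adjusted p = 0.047, 7 of 9), RFC3, a subunit of the clamp loader (-0.25, adjusted p = 0.004, 8 of 9), and POLE2, a polymerase epsilon subunit (-0.18, adjusted p = 0.0057, 9 of 9). Median scaling ended the calls of POLE2 (adjusted p = 0.083) and RRM2 (adjusted p = 0.11), leaving out any of 6 lines also ended that of RRM2, and the other probes of RFC3 ranged from -0.47 to 0.45. PRIM1 had 8.96, 9.54 and 9.95 in C+50 cells, against 9.20, 9.60 and 10.52 in Con cells. The change of RRM2 was lowest in DMS53 (-0.84) and highest in H526 (0.21).

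The promoters of the 2 largest rises of the list that hold an E2F match, chosen after their values were seen, are shown for contrast with the mitotic ones, with matches to TTTCCCGC, TTTGGCGC or TTCGCGC on either strand in capitals. They are RFC5, a clamp loader subunit (chr12:118016453-118016752, + strand), and CDC25A, a phosphatase that activates CDK2 (chr3:48188368-48188667, - strand), both GRCh38.p14 and RefSeq. RFC5 rose by 0.31 and CDC25A by 0.29 at their brightest probes, each in 9 of 9 lines, with other probes at 0.03 and 0.12.
RFC5: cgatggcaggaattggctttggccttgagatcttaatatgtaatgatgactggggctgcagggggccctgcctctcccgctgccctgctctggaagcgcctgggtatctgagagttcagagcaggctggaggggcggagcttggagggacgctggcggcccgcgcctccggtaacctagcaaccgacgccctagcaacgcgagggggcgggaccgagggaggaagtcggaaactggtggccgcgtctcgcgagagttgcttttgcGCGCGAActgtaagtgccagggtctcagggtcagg
CDC25A: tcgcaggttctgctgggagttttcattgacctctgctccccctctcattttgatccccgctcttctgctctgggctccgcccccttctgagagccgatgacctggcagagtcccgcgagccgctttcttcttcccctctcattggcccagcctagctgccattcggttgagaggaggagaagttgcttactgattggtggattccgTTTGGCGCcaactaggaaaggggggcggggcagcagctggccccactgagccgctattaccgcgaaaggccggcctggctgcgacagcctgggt
The match lay 16 bases after the start in RFC5 and 44 before it in CDC25A. FEN1, UNG and CCNE1 held none of these letters in the window used.

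Over the promoters given, TTTGAA was present in 37 of 57 of the mitosis genes (64.9%), in 3 of 50 G1/S and replication genes (6%), in 10.1% of the 10744 described genes with a promoter and in 15.4% of all 27305 promoters. Both TTTGAA and CCAAT were present in 49.1% of the mitosis genes, in 4.26% of the described genes and in 6.08% of all promoters. At least 1 of the 3 E2F motifs was present in 52% of the G1/S and replication genes, in 12.3% of the mitosis genes, in 7.21% of the described genes and in 4.49% of all promoters. Within the replication list the share was 52.9% of the genes that rose and 51.7% of those not called, and within the mitosis list TTTGAA stood in 70% of the genes that fell and in 56.2% of those not called. The ETS motif CCGGAAGT was in 15.6% of the 911 higher genes with a promoter and in 6.87% of the 1091 lower ones, against 8.07% over the genes described and 4.44% of all promoters. Motifs were searched on both strands, overlaps with other motifs were allowed, and a match is a description of letters, not a bound site.

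**Figure D2:**
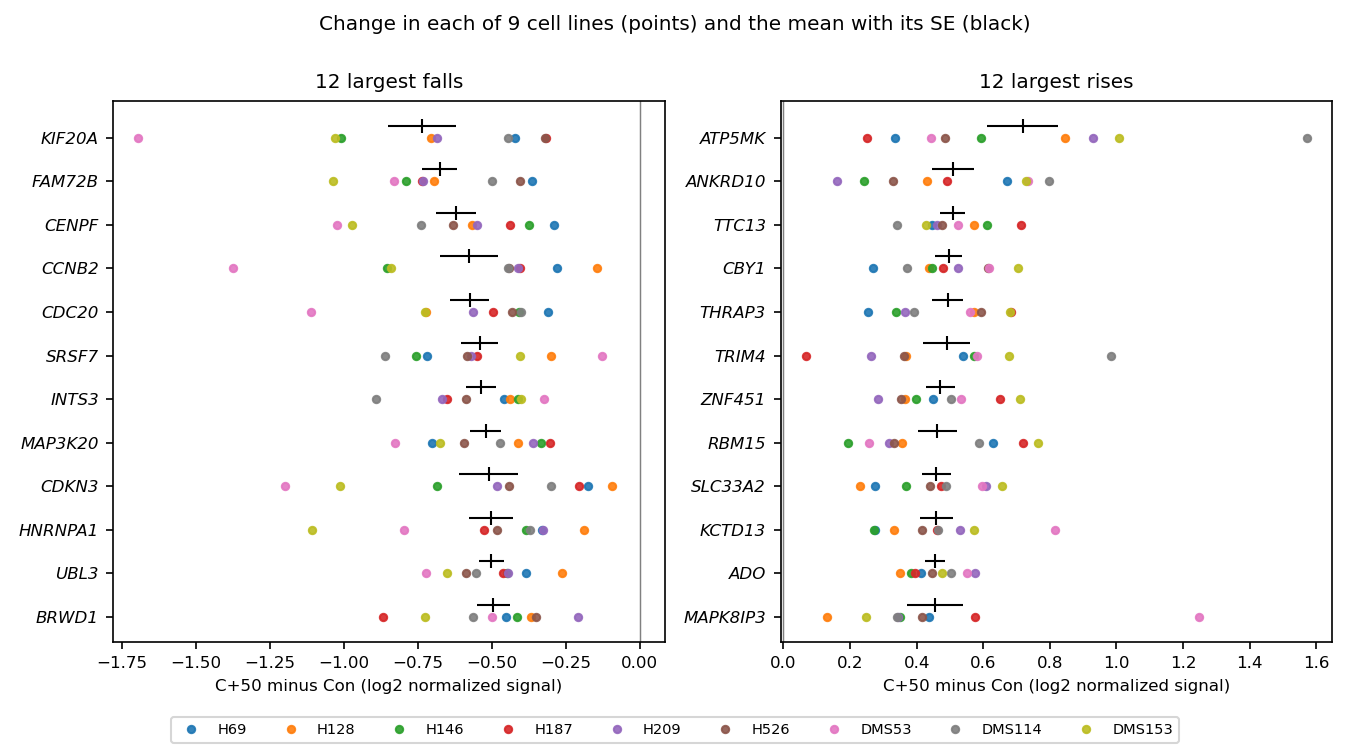
Change in each cell line (coloured points, C+50 minus Con, log2 normalized signal) for the 12 largest falls (left) and 12 largest rises (right) among called genes with the same direction in 9 of 9 lines. The mean and its moderated SE are in black. KIF20A spans -1.69 to -0.32 and ATP5MK spans 0.25 to 1.57.

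RNA-binding proteins and parts of the transcription machinery were also among the leading falls. SRSF7 encodes a serine- and arginine-rich splicing factor and had 9.06, 9.32 and 10.22 in C+50 cells, against 9.19, 10.04 and 10.63 in Con cells, and fell by 0.54 ± 0.06 (adjusted p = 0.0001). HNRNPA1, a nuclear RNA-binding protein that regulates splicing, had 7.78, 8.83 and 9.26 in C+50 cells, against 8.79, 9.09 and 9.59 in Con cells, and fell by 0.50 ± 0.07 (adjusted p = 0.00051). HNRNPA1 has many processed pseudogenes, so its probe may take signal from copies, and its other kept probe gave -0.17. HNRNPH3 and HNRNPC fell by 0.43 and 0.42, each lower in 9 of 9 lines (adjusted p = 9.2e-05 and 0.00011), and the other probe of HNRNPC gave -0.05. The splicing list moved in both directions, with 11 of 53 measured members higher and 13 lower, 45.3% in all against 17.7% over all genes, and 6 higher and 10 lower under median scaling. Its HNRNP genes, a group seen after their values, made up 9 of the 13 falls, with 2 of the 14 measured higher. The list's SRSF genes, the family of SRSF7, did not share its direction as a group. Among 9 measured SRSF genes 3 were higher and 2 lower, with a median of -0.01, against 8.24% higher and 9.51% lower over all genes. DDX39A, an RNA helicase of mRNA export, fell by 0.37 ± 0.04 (adjusted p = 5.4e-05), while CLP1, a kinase of tRNA splicing and 3′ end processing, rose by 0.20 ± 0.03 (adjusted p = 0.0013). In the polyadenylation and mRNA export list 4 of 27 were higher and 3 lower, 25.9% in all against 17.7% over all genes. Under median scaling 1 was higher and 2 lower.

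INTS3 encodes a subunit of the Integrator complex, and also takes part in the SOSS complex that binds single-stranded DNA. It had 8.25, 8.41 and 9.30 in C+50 cells, against 8.72, 8.96 and 10.20 in Con cells, and fell by 0.54 ± 0.05 (adjusted p = 2.0e-05), in every line. Of the RNA polymerase II list, 5 of 42 members were higher and 5 lower, 23.8% in all against 17.7% over all genes, and under median scaling 2 were higher and 5 lower. MED4, a Mediator subunit, fell by 0.43 ± 0.05 (adjusted p = 8.2e-05). Both components of P-TEFb, the kinase that releases paused polymerase, rose: CCNT1 by 0.38 ± 0.04 (adjusted p = 8.3e-05) and CDK9 by 0.35 ± 0.04 (adjusted p = 0.00012), each in 9 of 9 lines. CCNT1 had 9.51, 9.70 and 10.22 in C+50 cells, against 9.01, 9.35 and 9.93 in Con cells, and its other 2 kept probes were also higher. The largest subunit of the polymerase itself, POLR2A, fell by 0.27 ± 0.06 (adjusted p = 0.0053), lower in 8 of 9 lines, with 9.54, 9.68 and 10.74 in C+50 cells, against 9.57, 10.05 and 10.99 in Con cells.

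Of the other leading falls, FAM72B belongs to a family of near-identical copies, so its probe cannot be assigned to a single copy. Its signal was 7.36, 8.71 and 9.44 in C+50 cells, against 8.19, 9.43 and 10.18 in Con cells, and it fell by 0.68 ± 0.06 (adjusted p = 1.1e-05). MAP3K20, the kinase ZAK of the ribotoxic stress response, fell by 0.52 ± 0.05 (adjusted p = 3.2e-05), with 6.79, 8.68 and 10.26 in C+50 cells, against 7.09, 9.38 and 10.68 in Con cells, and a second probe at -0.17. UBL3, a membrane-anchored ubiquitin-like protein, fell by 0.50 ± 0.04 (adjusted p = 9.6e-06). BRWD1, a bromodomain protein, fell by 0.49 ± 0.06 at its brightest probe (adjusted p = 8.3e-05), but its 3 other kept probes ranged from -0.20 to 0.18, with 2 higher and 1 lower, so the gene's direction depends on the probe.

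The largest rise was ATP5MK, a small membrane subunit of ATP synthase. It had 6.90, 7.97 and 9.70 in C+50 cells, against 6.57, 7.33 and 8.22 in Con cells, and rose by 0.72 ± 0.11 (adjusted p = 0.00049), from 0.25 in H187 to 1.57 in DMS114. The probe was detected in all 9 C+50 arrays and in 8 Con arrays. In oxidative phosphorylation as a whole 5 of 59 members were higher, ATP5MK among them, and 1 was lower, 10.2% in all against 17.7% over all genes, with a list median of 0.01 and 1 higher under median scaling. ANKRD10, an ankyrin repeat protein, had 7.79, 9.14 and 9.66 in C+50 cells, against 7.12, 8.41 and 9.29 in Con cells, and rose by 0.51 ± 0.06 (adjusted p = 0.00017), with its second probe at 0.46. THRAP3, an RNA-processing protein that also takes part in the DNA damage response, had 8.22, 9.00 and 9.45 in C+50 cells, against 7.88, 8.43 and 8.81 in Con cells, and rose by 0.49 ± 0.05 (adjusted p = 2.0e-05). RBM15, an RNA-binding protein of the m6A methylation complex, rose by 0.46 ± 0.06 (adjusted p = 0.00019).

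The smallest SE among the 12 largest rises was that of ADO, a cysteamine and protein cysteine dioxygenase, with 0.45 ± 0.03 (adjusted p = 3.1e-06) and a range over lines of 0.35 to 0.58. TTC13 rose by 0.51 ± 0.04 (adjusted p = 3.7e-06) and ranged from 0.34 to 0.71, although its 2 other kept probes gave 0.09 and 0.40. CBY1, an inhibitor of beta-catenin and a centriole protein, rose by 0.50 ± 0.04 at its brightest probe (adjusted p = 9.3e-06), against -0.02 and 0.14 at the others. TRIM4, a ubiquitin ligase, rose by 0.49 (adjusted p = 0.00041) with its second probe at 0.01. ZNF451, a SUMO ligase, rose by 0.47 with a second probe at 0.31, and SLC33A2 and KCTD13, an adaptor of cullin-3, rose by 0.46 each. MAPK8IP3, a JNK scaffold and motor adaptor, rose by 0.45 ± 0.08 (adjusted p = 0.0022), with 1.247 in DMS53 and 0.13 to 0.58 in the other lines. All of these genes were higher in 9 of 9 lines.

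**Figure D3:**
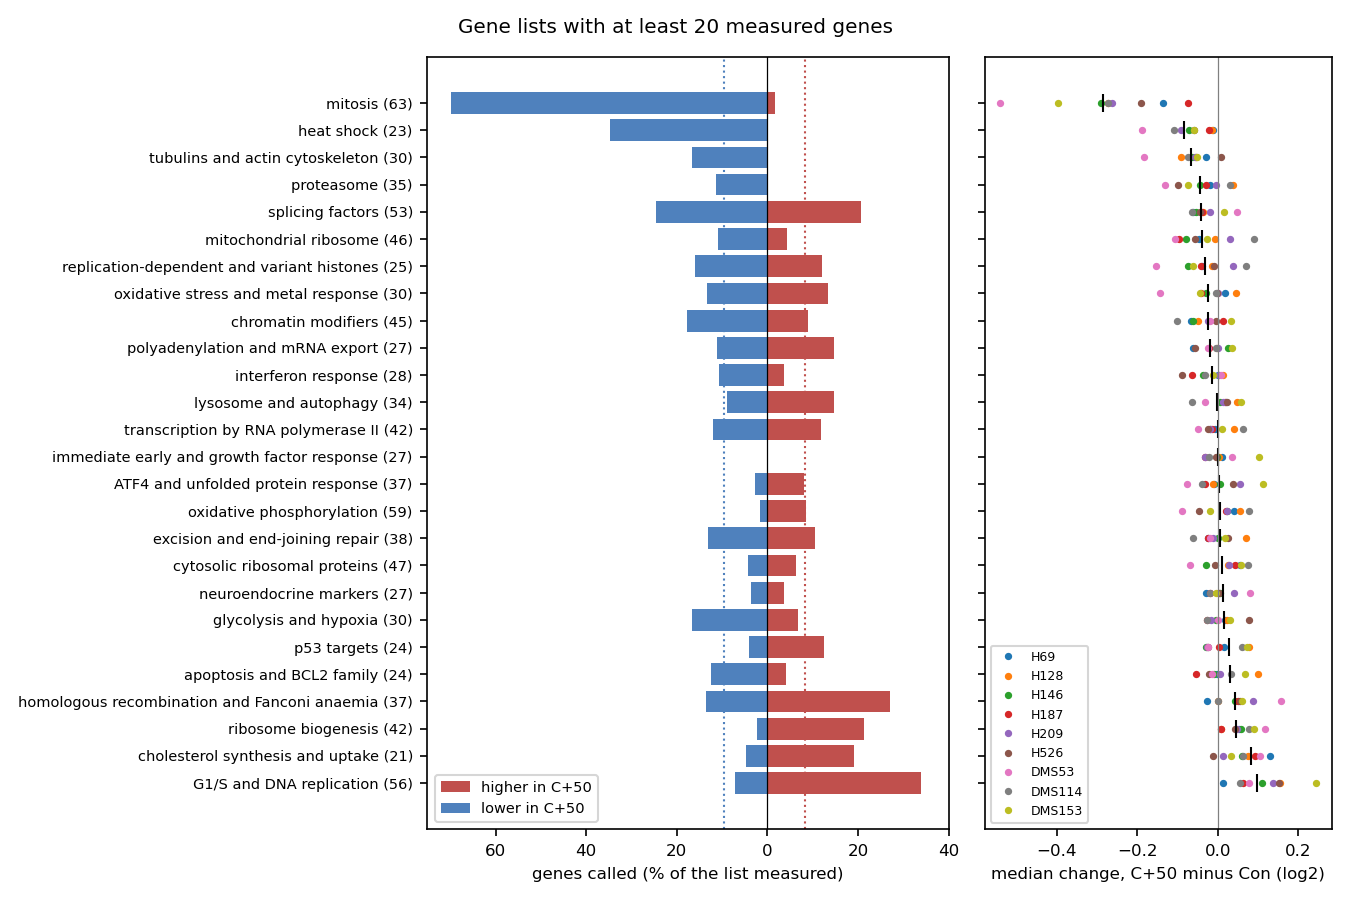
Left, share of the measured genes of each list that were called higher (red, right of 0) or lower (blue, left of 0) in C+50, with dotted lines at the shares over all described genes, 8.24% higher and 9.51% lower, and the number measured in brackets. Right, the list's median change (log2) in each cell line as points and the median of the mean change as a bar, where the mitosis list is the only one near -0.28.

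PARP1 and PARP2, the targets of veliparib, and several repair genes named whatever their change were not called. PARP1 had 11.05, 11.45 and 12.46 in C+50 cells, against 11.08, 11.44 and 12.43 in Con cells, a difference of 0.00 ± 0.03 (adjusted p = 0.98). PARP2 differed by 0.09 ± 0.04 (adjusted p = 0.19). PRKDC, the catalytic subunit of DNA-PK, differed by -0.00 ± 0.07 (adjusted p = 0.98), but individual lines ran from -0.47 in DMS114 to 0.57 in H526. The Ku subunits XRCC5 and XRCC6 differed by -0.10 and 0.01, and ERCC1, a nuclease subunit of nucleotide excision repair, by -0.09, none called at the brightest probe. The other kept probe of XRCC6 gave 0.11 and was called higher. BRCA1, central to homologous recombination, was lower in 7 of 9 lines (-0.18 ± 0.05, adjusted p = 0.027), and leaving out any of 5 lines or scaling by the median ended that call.

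Genes of homologous recombination and the Fanconi anaemia pathway were called in both directions, 10 of 37 higher and 5 lower, against 8.24% and 9.51% over all genes, with a median of 0.04. Under median scaling 5 were higher and 2 lower. NBN, the nibrin subunit of the MRN complex that senses double-strand breaks, had 7.69, 8.01 and 8.76 in C+50 cells, against 8.08, 8.48 and 9.16 in Con cells, and fell by 0.42 ± 0.03 (adjusted p = 8.5e-06), in every line, with its other probe at -0.08. RAD54L, a motor protein of strand exchange, had 8.11, 8.85 and 9.51 in C+50 cells, against 7.88, 8.55 and 9.12 in Con cells, and rose by 0.37 ± 0.05 (adjusted p = 0.00032). The resection nuclease EXO1 and the Fanconi core subunit FANCB rose by 0.30 and 0.28 at their brightest probes, in 9 of 9 lines each. The other probe of FANCB gave -0.03, and the other 2 of EXO1 gave 0.01 and 0.23. Of 38 measured members of the excision and end-joining list, 4 were higher and 5 lower, 23.7% in all against 17.7% over all genes, and under median scaling 1 was higher and 2 lower. RAD23B, a partner of XPC in damage recognition, fell by 0.39 ± 0.03 (adjusted p = 6.1e-06), with 7.67, 8.36 and 8.75 in C+50 cells, against 8.05, 8.66 and 9.18 in Con cells, while MSH6 of mismatch repair rose by 0.32 ± 0.05 (adjusted p = 0.00049), with 10.88, 11.16 and 11.42 in C+50 cells, against 10.54, 10.82 and 11.12 in Con cells. ERCC3, a helicase of TFIIH, and XRCC1, the scaffold of single-strand break repair, rose by 0.17 and 0.16, and median scaling ended both calls.

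Of 24 measured p53 targets, 3 were higher and 1 lower, 16.7% in all against 17.7% over all genes, with a median of 0.03. CDKN1A, which encodes the CDK inhibitor p21, had 7.20, 9.90 and 10.89 in C+50 cells, against 7.16, 10.09 and 10.80 in Con cells, a difference of 0.05 ± 0.04 (adjusted p = 0.46), and MDM2, a ubiquitin ligase for p53, differed by -0.03 ± 0.04 (adjusted p = 0.73). PMAIP1, the BH3-only protein NOXA, rose by 0.33 ± 0.05 (adjusted p = 0.00094), higher in 8 of 9 lines, with 6.62, 8.24 and 10.63 in C+50 cells, against 6.65, 7.72 and 10.20 in Con cells. XPC, the damage sensor of global genome repair, rose by 0.26 ± 0.04 (adjusted p = 0.00095), in 8 of 9 lines, and TP53INP1, a stress-induced regulator of autophagy and p53, rose by 0.22 ± 0.05 (adjusted p = 0.0097), a call that median scaling ended. TP53I3, an oxidoreductase, fell by 0.16 in 8 of 9 lines (adjusted p = 0.035). The call was lost under median scaling and without any of 6 lines. Among 24 apoptosis genes 1 was higher and 3 lower, 16.7% in all against 17.7% over all genes. The caspases CASP6 and CASP9, proteases of apoptosis, fell by 0.16 and 0.13, each in 8 of 9 lines (adjusted p = 0.028 and 0.019), and both calls held under median scaling (adjusted p = 0.039 each). Leaving out any of 5 lines ended the call of CASP6, and leaving out H187 that of CASP9. MCL1, an anti-apoptotic partner of NOXA, rose by 0.22 ± 0.04 in 9 of 9 lines (adjusted p = 0.0018), with its other probe at -0.01, and BCL2L11, the pro-apoptotic protein BIM, fell by 0.10 (adjusted p = 0.027). Median scaling ended the calls of MCL1 and BCL2L11, and leaving out any of 4 lines ended that of BCL2L11.

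The heat shock list had 8 of 23 members lower and none higher, 34.8% called against 17.7% over all genes, with a median of -0.08. Under median scaling 2 were lower. HSPB1, a small heat shock protein, fell by 0.23 ± 0.04 (adjusted p = 0.0023), lower in 8 of 9 lines, with 7.72, 11.05 and 11.98 in C+50 cells, against 7.94, 11.43 and 12.19 in Con cells, and the Hsp110 chaperones HSPA4L and HSPH1 fell by 0.18 and 0.15, the second a call that median scaling ended. Of the oxidative stress and metal list, 4 of 30 were higher and 4 lower, 26.7% in all against 17.7% over all genes, and under median scaling 0 were higher and 3 lower. The metallothioneins MT1X and MT1E, which bind zinc and copper, fell by 0.39 ± 0.08 and 0.35 ± 0.07 (adjusted p = 0.004 and 0.0058), in 9 of 9 lines, largest in DMS153 (-1.03 and -0.91). They are near-identical paralogs whose probes may share signal, and the other probe of MT1E gave -0.01. Of the 7 measured metallothioneins 2 were lower, none was higher and the rest were not called, against 9.51% lower and 8.24% higher over all genes. MTF1, the metal-responsive factor that controls them, rose by 0.15, a call that median scaling ended. SHMT2, a mitochondrial enzyme of one-carbon metabolism, rose by 0.28 ± 0.04 (adjusted p = 0.00033), in 9 of 9 lines. In its list, ATF4 and unfolded protein response, 3 of 37 members were higher and 1 lower. That was 10.8% in all against 17.7% over all genes. No gene of 27 immediate early and growth factor genes was called, against 17.7% over all genes.

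Of 42 genes of ribosome biogenesis, 9 were higher and 1 lower, 23.8% in all against 17.7% over all genes, with a median of 0.04, and 2 were higher under median scaling. UTP14A and BYSL, factors of the small ribosomal subunit, rose by 0.32 ± 0.05 (adjusted p = 0.00049) and 0.28 ± 0.05 (adjusted p = 0.0015). DDX10, an RNA helicase of the same process, fell by 0.34 ± 0.05 (adjusted p = 0.0004) in 9 of 9 lines. Of the mitochondrial ribosome, MRPL39 had the largest change, a fall of 0.39 ± 0.04 (adjusted p = 3.6e-05), with a second probe at -0.02. In that list 2 of 46 genes were higher and 5 lower, 15.2% in all against 17.7% over all genes.

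Of 25 histone genes, 3 were higher and 4 lower, 28% in all against 17.7% over all genes, and under median scaling 1 was higher and 2 lower. H2BC5, a replication-dependent H2B gene, rose by 0.41 ± 0.06 (adjusted p = 0.00049), with a median of 8.10 and a highest of 9.63 in C+50 cells, against 7.81 and 9.20 in Con cells. Histone genes of one type are near-identical, so its probe may take signal from others. The replication-independent variants H2AZ1 and H2AZ2 fell by 0.18 and 0.22, in 9 of 9 lines each, and median scaling ended the call of H2AZ1. RBBP4, a histone chaperone of several chromatin complexes, rose by 0.33 ± 0.04 at its brightest probe (adjusted p = 0.00025), while its 2 other probes gave -0.06 and 0.00. KAT2B, a histone acetyltransferase, fell by 0.28 ± 0.05 (adjusted p = 0.0019), and TET1, a 5-methylcytosine oxidase, fell by 0.24 ± 0.06 (adjusted p = 0.017), with -0.77 in DMS114. KMT2A, a histone H3K4 methyltransferase, rose by 0.21 (adjusted p = 0.0031), a call lost under median scaling. In the chromatin modifier list, which holds RBBP4, KAT2B, TET1 and KMT2A, 4 of 45 genes were higher and 8 lower. That was 26.7% in all against 17.7% over all genes. Under median scaling 1 was higher and 6 lower.

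Of 27 measured neuroendocrine markers 1 was lower and 1 higher, 7.41% in all against 17.7% over all genes. SNAP25, a synaptic vesicle fusion protein, fell by 0.23 ± 0.04 (adjusted p = 0.0028), in 9 of 9 lines, and ENO2, neuron-specific enolase, rose by 0.21 ± 0.04 (adjusted p = 0.0053), in 8 of 9 lines, while the list's median was 0.01. POU2F3, which marks tuft-like SCLC, differed by 0.05 ± 0.03 (adjusted p = 0.37), and was detected on 2 C+50 and 2 Con arrays. Of the cytoskeletal list 5 of 30 were lower and none higher, 16.7% in all against 17.7% over all genes, with TUBB4B, a beta-tubulin, lower by 0.25 ± 0.03 (adjusted p = 0.00016), and STMN1, a tubulin-binding protein, lower by 0.21 at its brightest probe. The 4 other probes of STMN1 ranged from -0.05 to -0.02, none called, and median scaling ended the call of the brightest. NDRG1, a hypoxia-induced gene, and SLC2A1, the glucose transporter GLUT1, fell by 0.23 and 0.22, each in 8 of 9 lines. In their list, glycolysis and hypoxia, 2 of 30 members were higher, ENO2 among them, and 5 lower. That was 23.3% in all against 17.7% over all genes, and the list's median was 0.01. Under median scaling 1 was higher and 3 lower. LAMP2, a lysosomal membrane protein, fell by 0.30 ± 0.04 at its brightest probe (adjusted p = 0.00016), but 3 of its 5 other probes were higher. In the lysosome and autophagy list 5 of 34 genes were higher and 3 lower, 23.5% in all against 17.7% over all genes. Under median scaling 1 was higher and 1 lower. BECN1, an autophagy initiator, rose by 0.19, and IDI1 and MVD of cholesterol synthesis by 0.18 each, with BECN1 and IDI1 lost under median scaling and IDI1 also without any of 4 lines. In the cholesterol list 4 of 21 members were higher and 1 was lower, by 0.17. That was 23.8% in all against 17.7% over all genes. Under median scaling 1 was higher and 0 lower.

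Cells given one drug alone stand beside the combination, and all 3 treatments share the same Con arrays. The combination changed 14.2% of probes and 17.7% of genes. Veliparib alone gave 846 genes higher (6.22%) and 1020 lower (7.5%), together 13.7%, and 11.3% of probes, 5.28% higher and 6.05% lower. Cisplatin alone gave 33 genes higher (0.243%) and 108 lower (0.794%), together 1.04%, and 0.854% of probes, 0.197% higher and 0.657% lower. KIF20A fell by 0.74 in C+50, by 0.59 in A50 and by 0.47 in C+0, and CDC20 by 0.57, 0.42 and 0.35. The mitosis list had 44 members lower in C+50, 38 in A50 and 27 in C+0, with medians of -0.28, -0.23 and -0.21. SRSF7 changed by -0.54 in C+50, -0.58 in A50 and -0.02 in C+0, and INTS3 by -0.54, -0.48 and -0.04, neither called in C+0. CCNT1 changed by 0.38 in C+50, 0.31 in A50 and 0.11 in C+0, and HNRNPC by -0.42, -0.34 and -0.10. POLR2A changed by -0.27 in C+50, -0.43 in A50 and 0.15 in C+0, the last not called. ATP5MK rose by 0.72 in C+50 and by 0.70 in A50, and was 0.03 in C+0. CCNE1, at its brightest probe, was higher with each drug, by 0.35 in C+50, 0.14 in A50 and 0.22 in C+0. Of the splicing list, 11 genes were higher and 13 lower in C+50, 9 higher and 17 lower in A50, and none was called in C+0 by limma. Whether these counts differ between treatments was not tested.

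**Figure D4:**
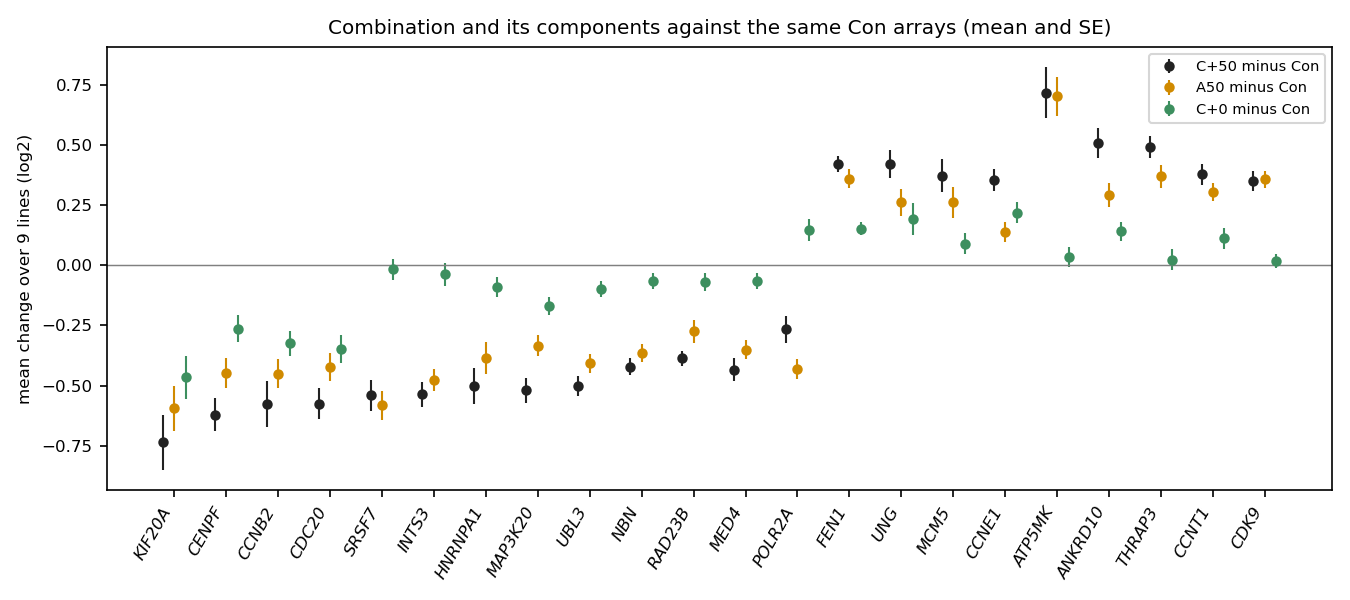
Mean change over 9 lines (log2) with its moderated SE for 22 genes, in C+50, A50 and C+0, each minus the same Con arrays. SRSF7, INTS3 and ATP5MK lie near 0 in C+0, whereas KIF20A and CDC20 lie below 0 in all 3 treatments.

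Whether the combination departed from the sum of its components was tested as C+50 minus A50 minus C+0 plus Con in 1 limma fit of 36 arrays with cell line as a block. Only 4 of 25408 probes passed (0.0157%), all with a positive departure, which made 2 of the described genes by their brightest probe (0.0147%), and 1715 had an unadjusted p under 0.05. The count was 23 under median scaling and, with 1 line left out, 1 without H526, 2 without DMS114 or DMS153, and 7 without H69 or H187. The departure of an unnamed probe, ILMN_2377900, was 0.43 (adjusted p = 0.00082, 9 of 9 lines above 0), with -0.15 in C+50, -0.30 in A50 and -0.28 in C+0. For CSRNP3, a nuclear protein, the departure was 0.31 ± 0.05 (adjusted p = 0.0055), with -0.14 in C+50, -0.20 in A50 and -0.25 in C+0. For YY1, a zinc finger transcription factor, it was 0.28 ± 0.05 (adjusted p = 0.044), with -0.03 in C+50, -0.13 in A50 and -0.17 in C+0. One probe of DYRK2, a kinase for p53, not the gene's brightest, gave 0.32 (adjusted p = 0.025), with -0.08 in C+50, -0.28 in A50 and -0.13 in C+0. In each of these probes the combination lay nearer to Con than the components' values add up to, and no larger departure in either direction passed. The changes subtract the same Con arrays that the departure adds, so noise in those arrays moves them in opposite directions. The median standard error of a departure was 0.05. KIF20A departed by 0.32 and CDC20 by 0.20, neither called (adjusted p = 0.60 and 0.58).

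Long genes fell more often than short ones. A gene's span was taken from RefSeq, GRCh38.p14, for 13580 of the 13596 genes, and the genes were split into 5 equal groups. The share called lower was 4.97%, 6.41%, 8.28%, 10.5% and 17.4% from the shortest to the longest group, and the share called higher was 7.77%, 11.2%, 12.5%, 7.44% and 2.28%. In the longest group, with a median span of 159 kb, 472 genes were lower and 62 higher, and in the shortest, with a median of 3.74 kb, 135 were lower and 211 higher. The median span was 52.6 kb for genes that fell and 21.5 kb for genes that rose, against 28.1 kb for all. The leading falls were not all long: KIF20A spans 8.61 kb and CDC20 4.22 kb, whereas MAP3K20 spans 192 kb and BRWD1 137 kb.

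Within a line, the median change of the longest group minus that of the shortest was -0.05 ± 0.03 (SD, n = 9; exact two-sided sign-flip permutation p = 0.0078), below 0 in 8 of 9 lines, largest in DMS114 (-0.11) and 0.01 in H187. The same difference was -0.02 in A50 (7 of 9 lines below 0, exact permutation p = 0.0273) and -0.05 in C+0 (9 of 9, exact permutation p = 0.0039, the smallest this test can give), with the same Con arrays in all. The genes of the longest group were also dimmer, with a mean signal of 7.64 against 8.04 in the shortest, and in the genes above the median signal alone the difference was -0.07 (exact permutation p = 0.0117).

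**Figure D5:**
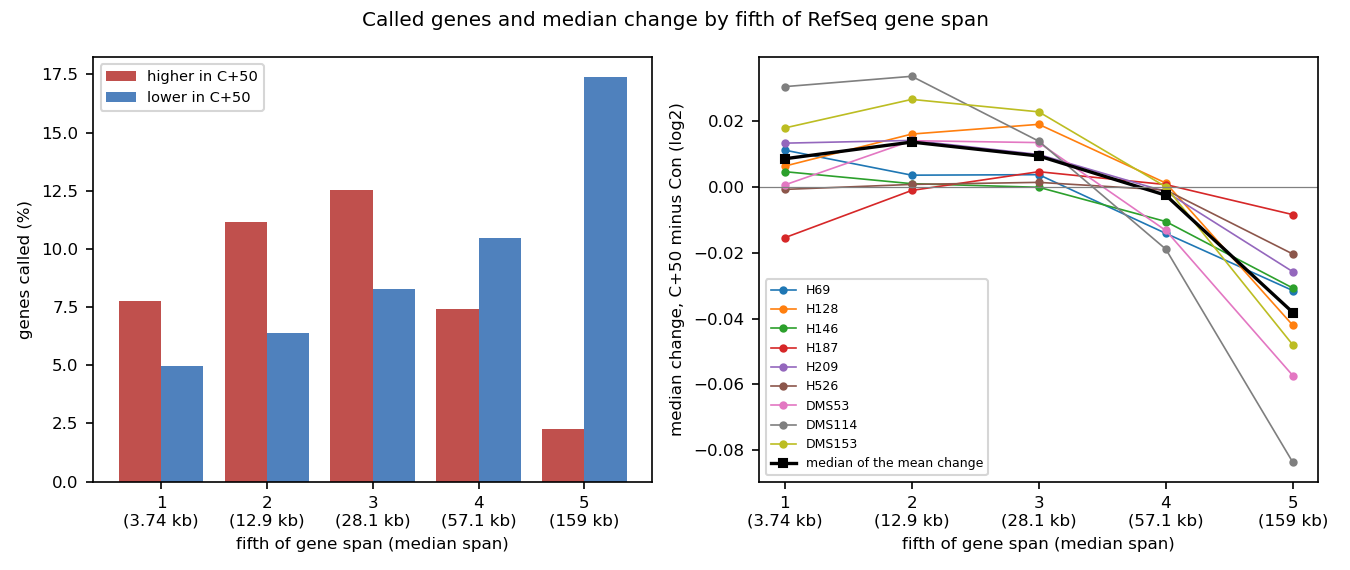
Left, share of genes called higher (red) or lower (blue) in C+50 for each of 5 gene span groups, shortest to longest, with the median span in kb below. Right, median change (C+50 minus Con, log2) of each group in each line (coloured) and the median of the mean change (black), where the longest group lies below 0 in all 9 lines.

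The lines differed in the size of the response. The root mean square change over probes was 0.13 in H209, 0.13 in H146, 0.14 in H69, 0.15 in H128, H526 and H187, 0.17 in DMS153, 0.18 in DMS114 and 0.24 in DMS53. Probes at least 1.5-fold higher in DMS53 numbered 576 in C+50, 167 in A50 and 118 in C+0, against 9 to 99, 6 to 59 and 3 to 58 in the other lines. The root mean square change had r = 0.25 (exact permutation p = 0.50) and rho = -0.10 (p = 0.81, exact permutation) with the log of the dose, and the mitosis list's median had r = -0.52 (exact permutation p = 0.154) and rho = -0.53 (exact permutation p = 0.148). With 2 relations tested, the adjusted values for r were 0.50 and 0.308 and for rho 0.81 and 0.295 (exact permutation). Without H526 and H187, the doses farthest from the median, r was 0.23 and -0.30. Under median scaling the mitosis relation had r = -0.27 and rho = -0.03, and no relation with dose passed the threshold. Each dose was the line's own IC50, so dose here stands for a line's resistance to cisplatin. A response to dose within a line cannot be seen in these values.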

How the data were processed

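Total RNA of 9 SCLC cell lines was measured on Illumina HumanHT-12 v4 arrays, 1 array per line and condition, and read in GenomeStudio 2010.3 per the submitters' processing notes. The deposited intensity values were quantile normalized over the 63 arrays by the authors, and log2 was taken here. The intensities before normalization and a detection p-value of each probe were also deposited by the authors, and background subtraction is not given in the sources used here. No sample column was left without a sample (0).

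The fits used 25408 of 47217 probes, those that 4 or more of the 18 arrays detected at p under 0.05. Differences were fitted with limma 3.58.1 (R 4.3.3) with cell line as a block, which was the pairing: deviations of 2 arrays of 1 line correlated at 0.929 to 0.972, against -0.380 to 0.137 for arrays of different lines. P-values were adjusted over all kept probes by Benjamini and Hochberg. They rest on how much the change within a line varied between lines, after the block removed the lines' own levels. With 1 array per line and condition, that spread cannot be told apart from noise of arrays and cultures. A gene was represented by its probe of highest mean signal, which gave 13614 genes, and 18 of the study's list were left out. Of the kept probes, 18621 had 1 symbol, 3 several and 6784 none used here, and a call was an adjusted p under 0.05. The number of arrays limits the precision, and the median SE of a change was 0.04. Genes were named by these rules: the 12 largest rises and 12 largest falls in 9 of 9 lines, up to 4 called members of each gene list, the 4 most variable between lines, up to 6 departures, and a fixed set whatever its change. The members and lists were chosen with earlier results of these data known. Permutation tests over lines, correlations and motif counts used Python 3.11.15 with scipy 1.17.1. The fits were tested on simulated data. Alternatives were other normalizations (quantile on the fitted arrays, median scaling, neqc with an offset of 16), no or a stricter filter, all 63 arrays, no block, no moderation, the mean of a gene's probes, and each line left out.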

Additional observations from a re-analysis of the deposited data

Results flagged for a closer look

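Among 108 sets of 9 lines, 8 had a line whose gap to the nearest other line exceeded the critical value of Dixon's test as a share of the whole range, and chance alone gives about 1 in 20. The change of MAPK8IP3 was 1.247 in DMS53, against 0.13 to 0.58 in the other lines. The change of STMN1 was -0.57 in DMS53, against -0.26 to -0.11. The number of probes at least 1.5-fold higher in C+50 was 576 in DMS53, against 9 to 99. The change of MT1X was -1.03 in DMS153, against -0.54 to -0.09, and that of SHMT2 was 0.55 in DMS153, against 0.13 to 0.33. The change of TET1 was -0.77 in DMS114, against -0.36 to -0.01, and that of ENO2 was -0.14 in DMS114, against 0.16 to 0.37. The change of RFC3 was 0.14 in H128, against -0.41 to -0.13.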

How the results depend on the processing

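Median scaling gave 1866 probes called (585 higher, 1281 lower), 392 genes higher and 839 lower, 12 G1/S genes higher and 23 departures. An ordinary linear model without moderation gave 2066 probes (939 higher, 1127 lower), 612 genes higher and 737 lower, 12 G1/S genes higher and 2 departures. A fit of all 63 arrays gave 5470 probes, 2595 of them higher. With neqc 145 probes passed the fold of the methods and 2 departures were called. With no replicate block 3 probes were called (0 higher, 3 lower), 0 genes higher and 0 lower, 0 mitosis genes lower, 0 G1/S genes higher and 0 departures, since limma then held the differences between lines in the error. Leaving out 1 line gave 2766 to 3469 probes, 39 to 46 mitosis genes lower and 1 (without H526) to 7 (without H69) departures. At a detection p under 0.01 the difference in detected probes was -474. Of 91 called genes named in the text, 17 lost the call under median scaling, 15 in the ordinary model and 3 under neqc, and 8 lost it without at least 1 line. None reversed under any of these or without 1 line. Of those not called, PARP1 was -0.0148 and XRCC6 was -0.0113 under median scaling. Without 1 line, MDM2 ranged from -0.0501 to 0.00496, PARP1 from -0.00508 to 0.00905, PRKDC from -0.0765 to 0.0534 and XRCC6 from -0.018 to 0.024. The causes were not tested. Changes near the median SE of 0.04 are at the limit of these 18 arrays.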
